A study of Mus musculus with 12 samples.

Results

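The integrated stress response and the amino acid supply of T cells were followed through 35 genes: the transcription factor ATF4 and its partners, the enzymes of serine and folate one-carbon metabolism, other amino acid enzymes, amino acid transporters and aminoacyl-tRNA synthetases. The genes were chosen by name from pathway knowledge, with earlier results of these data known, and each was read from its brightest transcript cluster on the array, by the mean over all arrays. Of the 35 genes, 33 had a transcript cluster of their own, among 19938 genes measured in all. Pycr1 (pyrroline-5-carboxylate reductase, proline synthesis) had no single-gene value and Aars (alanyl-tRNA synthetase) was present only in a transcript cluster shared with Exosc6, so neither is counted below.

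ATF4 is a transcription factor whose messenger RNA is translated more efficiently when the initiation factor eIF2 is phosphorylated, as happens when amino acids run short or unfolded protein accumulates. It binds C/EBP-ATF response elements and raises genes that import amino acids, make asparagine, serine and proline, and charge tRNAs. Serine in turn feeds one-carbon units into the folate cycle for nucleotide synthesis, a route that T cells are known to draw on when they divide.

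The cells were CD8+CD28low regulatory T cells, a CD8 T cell subset with little of the costimulatory receptor CD28 on its surface, from mice of the C57Bl/6 strain. The 4 groups of 3 arrays each were activated Aire-deficient (KO), activated wild-type (WT), native KO and native WT. Activated cells had spent 96 h in culture with allogenic antigen-presenting cells (APC) plus an antibody to CD3, and native cells were taken fresh. Aire is the thymic regulator that lets tissue-restricted antigens be displayed to developing T cells. The labels give neither the Aire allele, the isolation steps nor the number of mice per array. The titles call the arrays biological replicates, and the p-values measure the spread between these arrays only. Culture, time, APC and anti-CD3 come together in every activated array and cannot be told apart. In the sample descriptions, activated arrays carry experiment numbers 2, 4 and 6 and native arrays 1, 3 and 5. State and experiment number therefore cannot be told apart either.

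Aire itself was at background on all 12 arrays, at 5.55 to 5.92, so its level does not check the genotype labels. All 8 measured CD8 T cell markers (such as Cd3e, Cd8a and Cd8b1) and Cd28 itself lay above background on all 12 arrays. Background was set at the 95th percentile of 1027 olfactory receptor genes on the same array. It lay between 6.12 and 6.41 on 10 arrays, at 7.31 on activated KO array 3 and at 6.72 on activated WT array 2. These same arrays had the narrowest interquartile ranges of all values, 2.19 and 2.45, against 2.65 to 2.89 on the others. On activated arrays, 11 (KO) and 12 (WT) of 12 macrophage and dendritic cell markers were at background, against 10 in either native group. On activation in KO cells, 5 of 12 neutrophil markers were called lower (limma adjusted p under 0.05), with a median log2 difference of -1.65. In WT cells 0 of the 12 were, with a median of -0.44. In KO cells 2 macrophage and dendritic cell, 2 natural killer, 2 CD8 T and 1 B cell marker fell too. In WT cells these counts were 0, 1, 0 and 1, and 1 natural killer marker rose. Of all genes, 11.4% were called lower in KO and 10.9% in WT cells. The mean of 9 proliferation genes lay between 10.57 and 11.01 on activated arrays, against 7.11 to 7.80 on native arrays. The part of proliferation and of the mix of cell types in the activation results was not tested. These are bulk samples, in which fewer cells of a type and less RNA per cell cannot be told apart.

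The letters that ATF4 is known to recognise were looked up in RefSeq promoter windows (GRCm38.p6, 250 bases before to 50 after a transcript start). The search used the core TGATGNAA on either strand, with N for any base. Of the 35 genes, 29 had a window and 10 of those held the core (34.5%), against 3.97% of all 32851 windows and 4.51% of the 27025 genes with a window. The 10 were Asns, Pycr1, Got1, Slc7a11, Slc1a4, Chac1, Trib3, Atf3, Aars and Gars. A match describes the letters and does not show binding. The 80-base stretches below are shown because they carry the core in genes of several roles. These are the regulator Atf3, the enzyme Chac1 counted with the regulators, amino acid enzymes (Asns, Got1), a transporter (Slc7a11) and a tRNA synthetase (Gars). Capitals mark the core, which reads TTNCATCA where it lies on the strand opposite to the gene.
Asns, chr6:7693210-7693289, minus strand: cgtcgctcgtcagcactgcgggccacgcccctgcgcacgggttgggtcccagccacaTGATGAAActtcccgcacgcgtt
Chac1, chr2:119351013-119351092, plus strand: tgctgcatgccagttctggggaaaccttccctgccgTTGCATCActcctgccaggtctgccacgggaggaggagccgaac
Atf3, chr1:191183400-191183479, minus strand: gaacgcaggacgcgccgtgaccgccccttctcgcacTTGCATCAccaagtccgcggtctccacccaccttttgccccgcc
Got1, chr19:43524664-43524743, minus strand: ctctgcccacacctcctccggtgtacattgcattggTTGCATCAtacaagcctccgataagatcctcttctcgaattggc
Slc7a11, chr3:50443626-50443705, minus strand: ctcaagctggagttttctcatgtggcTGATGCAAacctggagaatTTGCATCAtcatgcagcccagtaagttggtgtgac
Gars, chr6:55037921-55038000, plus strand: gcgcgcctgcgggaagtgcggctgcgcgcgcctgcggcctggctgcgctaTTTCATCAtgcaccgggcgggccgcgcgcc

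**Figure D1:**
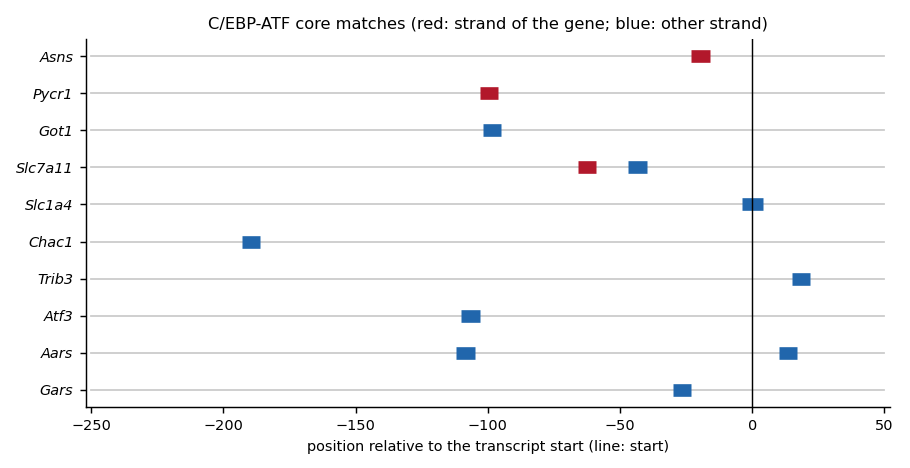
Position of each match to the C/EBP-ATF core in the promoter windows of 10 genes, from 250 bases before to 50 after the transcript start (vertical line), red on the strand of the gene and blue on the other. Slc7a11 and Aars held 2 matches each, and the match in Asns lay closest to the start of those wholly upstream of it.

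The first comparison asked how activation moved these genes within each genotype. Activated KO cells carried more RNA of 18 of the 33 genes than native KO cells at an adjusted p under 0.05 (limma, Benjamini-Hochberg over all genes), and none was lower. In WT cells 18 were also called higher and none lower. Among those 18 was Slc7a11, which was at background on all 12 arrays. Of all genes, 8.72% were called higher and 11.4% lower in KO cells, and 9.72% higher and 10.9% lower in WT cells. The median log2 difference of the 33 genes was 0.69 in KO and 0.64 in WT cells, against 0.02 and -0.02 over all genes. Asns, Bcat1, Psat1 and Mthfd2 rose by 2 log2 units or more in both genotypes, whereas Atf4 RNA itself was not called in either genotype.

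The activated and native arrays did not overlap, with the activated side higher, for 24 of the 33 genes in KO and 20 in WT cells. Over all genes this held for 13.8% in KO and 17.5% in WT cells. Of the genes called, 15 were shared, which is 83.3% of either list. Atf5, Nars and Sesn2 passed in KO cells, and Got1, Psph and Slc7a11 passed in WT cells. No gene passed the test of the difference between the 2 responses, so these lists are not shown to differ. The split of all genes depends on scaling: 1739 rose and 2263 fell in KO cells, against 2643 and 2137 after quantile normalization and 1891 and 1710 after median centring. In WT cells the corresponding numbers were 1937 and 2170, 2909 and 2052, and 2057 and 1597.

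**Figure D2:**
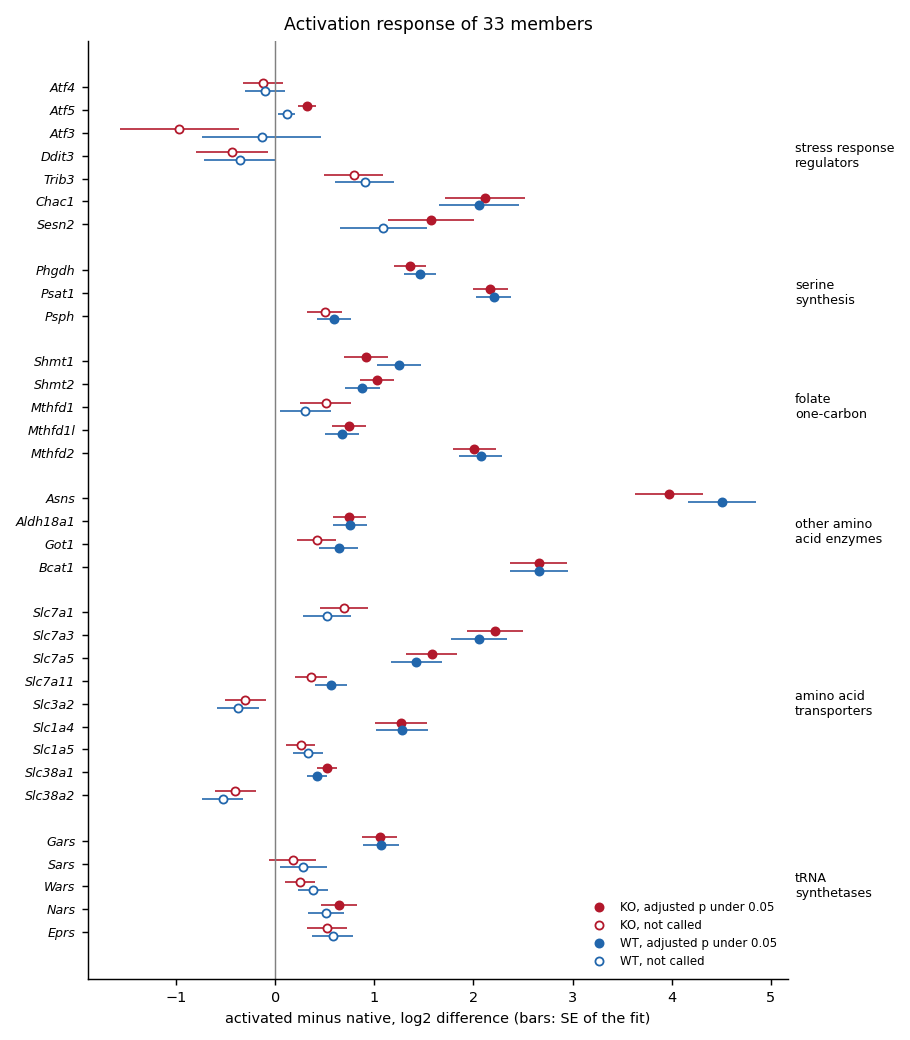
Log2 difference of activated minus native cells for each of the 33 genes, by role, in KO (red) and WT (blue) cells, with bars for the standard error of the fit and filled points where the adjusted p was under 0.05. Asns lies farthest right at 3.97 in KO and 4.51 in WT cells, while Atf4, Slc3a2 and Slc38a2 lie left of 0 with open points.

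Of the 3 enzymes that make serine from glycolytic 3-phosphoglycerate, 2 rose in KO and 3 in WT cells. Psat1, the aminotransferase of the second step, read 10.07, 9.70 and 9.93 on activated KO arrays, against 7.60, 7.84 and 7.73 on native KO arrays. Psat1 in activated WT cells read 10.04, 9.41 and 10.20, against 7.69, 7.69 and 7.67 in native WT cells. All activated arrays stood well clear of all native ones, with log2 differences of 2.17 ± 0.18 in KO and 2.20 ± 0.18 in WT cells (SE, n = 3 per group, limma adjusted p = 7.14e-06 and 5.74e-06). These are 4.50-fold and 4.61-fold.

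Phgdh, the dehydrogenase that commits 3-phosphoglycerate to serine, read 8.96, 8.61 and 8.85 in activated KO cells, against 7.52, 7.53 and 7.29 in native KO cells. Phgdh in activated WT cells read 8.69, 8.73 and 9.30, against 7.46, 7.34 and 7.54 in native WT cells. The groups were again apart, by 1.36 ± 0.16 in KO and 1.46 ± 0.16 in WT cells (adjusted p = 0.000134 and 7.03e-05, limma). Psph, the phosphatase of the last step, moved less, at 7.67, 7.60 and 7.84 in activated KO cells, against 7.10, 7.42 and 7.10 in native KO cells. Psph in activated WT cells read 7.85, 7.38 and 8.02, against 7.18, 6.94 and 7.36 in native WT cells. Its groups did not overlap in either genotype, but the difference of 0.50 ± 0.17 in KO cells missed the threshold (limma adjusted p = 0.0668) while 0.59 ± 0.17 in WT cells passed (0.0307). The WT call was lost without activated WT array 1 or 3 or native WT array 1 or 2, and when only the groups compared were fitted. The KO difference passed without activated WT array 2 (0.0271).

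Of the folate one-carbon enzymes, 4 of 5 rose in KO and 4 of 5 in WT cells. Mthfd2, the mitochondrial methylenetetrahydrofolate dehydrogenase, read 10.27, 9.82 and 9.80 in activated KO cells, against 7.99, 7.97 and 7.91 in native KO cells. Mthfd2 in activated WT cells read 10.16, 9.38 and 10.30, against 7.69, 7.86 and 8.07 in native WT cells. Every activated array exceeded every native one, by 2.01 ± 0.22 in KO and 2.07 ± 0.22 in WT cells on average (limma adjusted p = 6.2e-05 and 4.27e-05).

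Both serine hydroxymethyltransferases, which split serine into glycine and a one-carbon unit, rose. Shmt2, the mitochondrial form, read 10.89, 10.48 and 10.76 in activated KO cells, against 9.77, 9.81 and 9.48 in native KO cells. Shmt2 in activated WT cells read 10.76, 10.24 and 10.87, against 9.74, 9.61 and 9.90 in native WT cells. The differences were 1.03 ± 0.18 and 0.88 ± 0.18 (limma adjusted p = 0.00153 in KO and 0.00393 in WT cells). Shmt1, the cytosolic form, read 8.08, 7.60 and 7.87 in activated KO cells, against 6.90, 6.86 and 7.04 in native KO cells. Shmt1 in activated WT cells read 8.33, 7.45 and 8.44, against 6.74, 6.92 and 6.81 in native WT cells. Its groups did not overlap, and it rose by 0.92 ± 0.22 in KO and 1.25 ± 0.22 in WT cells (limma adjusted p = 0.0119 and 0.00181).

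Mthfd1l, which releases formate from mitochondria, read 9.84, 9.70 and 9.36 in activated KO cells, against 8.72, 8.98 and 8.98 in native KO cells. Mthfd1l in activated WT cells read 9.90, 9.28 and 9.80, against 8.92, 9.07 and 8.96 in native WT cells. The rise of 0.74 ± 0.17 in KO cells passed under every setting tried (limma adjusted p = 0.00984), and that of 0.67 ± 0.17 in WT cells (0.0164) was lost without activated WT array 1 or 3 or native WT array 1 or 3. Mthfd1, the cytosolic counterpart with 3 enzyme activities, was not called, at 0.51 ± 0.26 in KO and 0.30 ± 0.26 in WT cells (limma adjusted p = 0.219 and 0.525). Without activated WT array 2, Mthfd1 was called in WT cells at 0.64 (0.0355), and with array weights at 0.54 (0.00909).

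Of 4 other amino acid enzymes, 3 rose in KO and 4 in WT cells. Asns, asparagine synthetase, had the largest log2 difference of the 33 genes in both genotypes. It read 11.18, 11.02 and 9.82 in activated KO cells, against 6.81, 6.38 and 6.91 in native KO cells. Asns in activated WT cells read 11.22, 10.39 and 11.28, against 6.77, 6.19 and 6.39 in native WT cells. The lowest activated array, KO array 3, still lay above the highest native array by a wide margin. The log2 differences were 3.97 ± 0.34 in KO cells (95% interval 3.22 to 4.72, limma adjusted p = 1e-05) and 4.51 ± 0.34 in WT cells (3.76 to 5.26, 3.15e-06), which is 15.7-fold and 22.8-fold. Native WT cells had Asns above background on 1 of 3 arrays, so the WT fold is set against a level close to the floor of the scale.

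Bcat1, the cytosolic branched-chain aminotransferase, read 9.17, 8.38 and 8.63 in activated KO cells, against 5.90, 6.09 and 6.21 in native KO cells, all at background. Bcat1 in activated WT cells read 9.09, 7.97 and 9.19, against 6.004, 6.30 and 5.96 in native WT cells, with 1 native array above background. Its rise was at least 2.43 on the log2 scale in KO cells (limma adjusted p = 6.71e-05 for the measured difference). This bound sets each native array at its background level, or at its measured value if larger, and keeps activated arrays as measured. Such a bound is approximate where an activated array lay under its own background, and adjusted p-values beside bounds test measured differences. The measured difference in WT cells was 2.66 ± 0.29 (5.87e-05).

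Aldh18a1, which makes the proline precursor pyrroline-5-carboxylate, read 10.54, 10.29 and 10.22 in activated KO cells, against 9.70, 9.59 and 9.52 in native KO cells. Aldh18a1 in activated WT cells read 10.51, 9.92 and 10.68, against 9.66, 9.58 and 9.62 in native WT cells. The groups were apart, by 0.75 ± 0.17 in KO and 0.75 ± 0.17 in WT cells (limma adjusted p = 0.00903 and 0.00847). Got1, the cytosolic aspartate aminotransferase, read 10.57, 10.42 and 9.97 in activated KO cells, against 9.93, 9.96 and 9.83 in native KO cells. Got1 in activated WT cells read 10.72, 9.99 and 10.69, against 9.84, 9.89 and 9.76 in native WT cells. Activated KO array 3 and activated WT array 2 lay just above the highest native array of their genotype. The difference was 0.42 ± 0.20 in KO cells (limma adjusted p = 0.181) and 0.64 ± 0.20 in WT cells (0.0379), and the WT call was lost without activated WT array 1 or 3 or any of the native arrays of either genotype. Without activated KO array 3 Got1 was called in KO cells at 0.59 (0.0375).

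**Figure D3:**
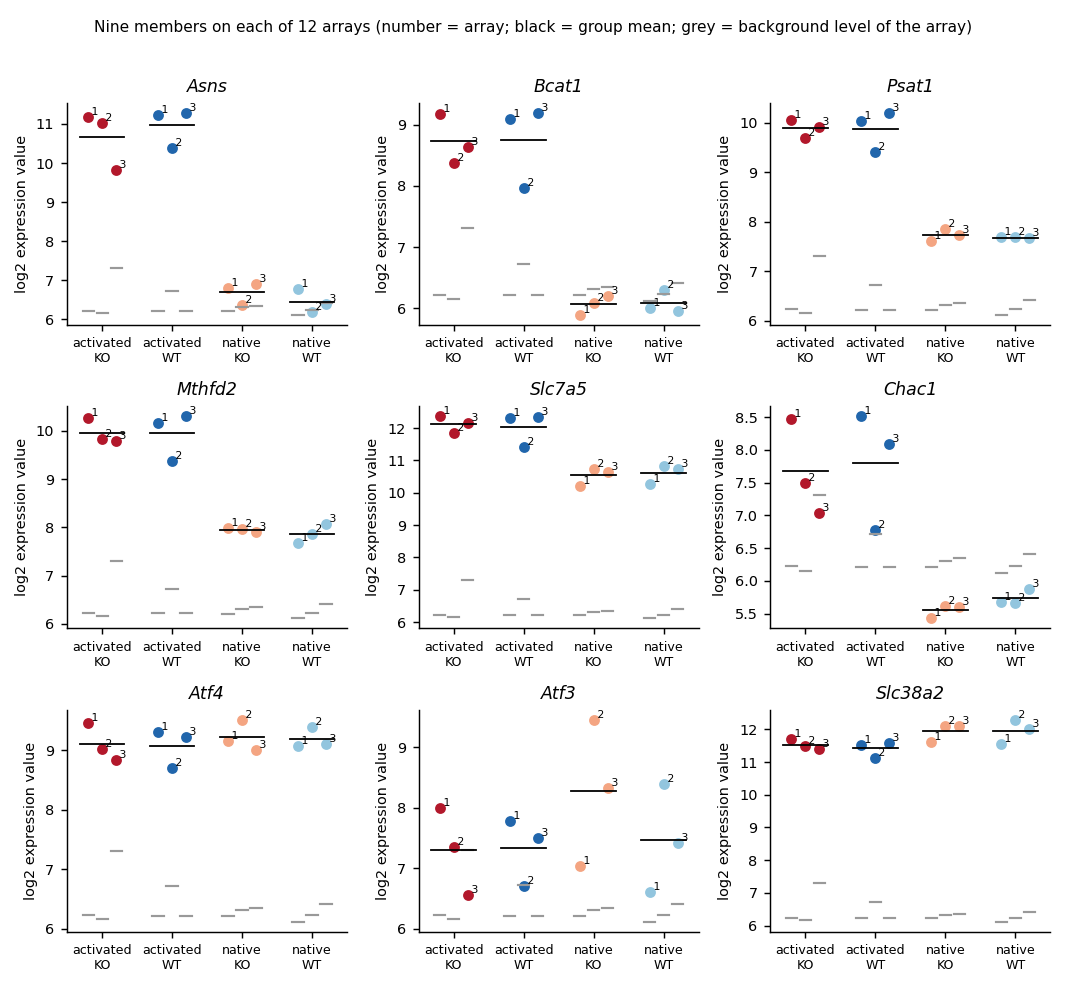
Log2 value of 9 genes on each of the 12 arrays (number = array), with the group mean in black and the background level of each array in grey. The 6 genes from Asns to Chac1 have all activated arrays above all native arrays of the same genotype, whereas Atf4, Atf3 and Slc38a2 overlap between the states.

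Of the 9 amino acid transporters, 4 passed as higher in KO and 5 in WT cells, where the fifth was Slc7a11, a gene at background. With 1 array left out the WT count ran between 3, without activated WT array 1 or 3 or native WT array 3, and 7, without activated WT array 2. Slc7a5, the large neutral amino acid transporter LAT1 that imports leucine, read 12.36, 11.84 and 12.15 in activated KO cells, against 10.22, 10.75 and 10.65 in native KO cells. Slc7a5 in activated WT cells read 12.32, 11.43 and 12.34, against 10.26, 10.83 and 10.73 in native WT cells. The groups did not overlap, and Slc7a5 rose by 1.58 ± 0.26 in KO and 1.42 ± 0.26 in WT cells (limma adjusted p = 0.0011 and 0.00201). Slc3a2, the heavy chain CD98hc with which LAT1 pairs, did not pass. It read 11.70, 11.29 and 11.38 in activated KO cells, against 11.57, 11.98 and 11.74 in native KO cells. Slc3a2 in activated WT cells read 11.53, 10.92 and 11.64, against 11.50, 12.05 and 11.68 in native WT cells. The states overlapped in both genotypes, with differences of -0.30 ± 0.21 and -0.38 ± 0.21 (95% intervals -0.76 to 0.15 in KO and -0.83 to 0.08 in WT cells).

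Slc7a3, a cationic amino acid transporter for arginine and lysine, read 7.66, 7.38 and 7.45 in activated KO cells, against 5.01, 5.41 and 5.41 in native KO cells. Slc7a3 in activated WT cells read 7.75, 6.68 and 8.13, against 5.45, 5.55 and 5.40 in native WT cells. All native arrays were at background, as was activated WT array 2. The rise was at least 1.20 on the log2 scale in KO cells, with an approximate bound of 1.27 in WT cells. The measured differences passed (limma adjusted p = 0.000206 and 0.000328). The related Slc7a1 was above background on every array and was not called, at 0.69 ± 0.24 in KO and 0.52 ± 0.24 in WT cells (limma adjusted p = 0.0678 and 0.178). The KO difference passed under 7 other settings, among them without activated KO array 2 (0.87, 0.032) and without activated WT array 2 (0.00466). The WT difference was 0.86 without activated WT array 2 and then passed (0.00255), as it did with array weights.

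Slc1a4, a transporter of alanine, serine and cysteine, read 6.85, 6.97 and 6.02 in activated KO cells, against 5.33, 5.38 and 5.33 in native KO cells. Slc1a4 in activated WT cells read 6.84, 6.11 and 7.07, against 5.27, 5.36 and 5.55 in native WT cells. Native cells were at background, and activated KO array 3 and activated WT array 2 were under their own background level too. The measured differences passed (limma adjusted p = 0.00509 in KO and 0.0045 in WT cells). The bound was 0.32 in KO and 0.42 in WT cells on the log2 scale, approximate because of those 2 activated arrays. With 1 array left out that bound ran as low as 0.15 in KO cells, without activated KO array 2, and 0.22 in WT cells, without activated WT array 3. It ran as high as 0.62 without activated KO array 3 and 0.71 without activated WT array 2. Slc1a5, which takes up glutamine, was not called, at 0.26 ± 0.15 in KO and 0.33 ± 0.15 in WT cells (limma adjusted p = 0.303 and 0.16), except in WT cells with array weights or without activated WT array 2, at 0.49 in that last setting (0.0235).

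Slc38a1, a sodium-coupled neutral amino acid transporter, read 10.87, 10.79 and 10.79 in activated KO cells, against 10.32, 10.39 and 10.18 in native KO cells. Slc38a1 in activated WT cells read 10.80, 10.60 and 10.82, against 10.38, 10.36 and 10.22 in native WT cells. It rose by 0.52 ± 0.10 in KO and 0.42 ± 0.10 in WT cells (limma adjusted p = 0.00407 and 0.0134), and the WT call was lost without activated WT array 1 or 3 or native WT array 3. Averaging the transcript clusters of Slc38a1 gave 0.73 in WT cells. Its relative Slc38a2, known as a transporter that cells raise when amino acids run short, read 11.70, 11.48 and 11.41 in activated KO cells, against 11.60, 12.12 and 12.10 in native KO cells. Slc38a2 in activated WT cells read 11.53, 11.14 and 11.60, against 11.55, 12.30 and 12.02 in native WT cells. The states overlapped through the low native arrays numbered 1. The differences of -0.41 ± 0.21 and -0.53 ± 0.21 did not pass (limma adjusted p = 0.219 in KO and 0.0946 in WT cells), except in WT cells without native WT array 1, where Slc38a2 was called lower at -0.74.

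Slc7a11, the cystine importer xCT, was at background on all 12 arrays, so no size is given for it, although its WT comparison passed the test (limma adjusted p = 0.0269, against 0.159 in KO cells). That call was lost without activated WT array 1 or 3 or any native WT array.

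Of the 5 tRNA synthetases measured, 2 rose in KO and 1 in WT cells. Gars, the glycyl-tRNA synthetase, read 11.07, 10.69 and 10.74 in activated KO cells, against 9.67, 9.80 and 9.88 in native KO cells. Gars in activated WT cells read 11.02, 10.37 and 11.08, against 9.75, 9.87 and 9.64 in native WT cells. Activated and native arrays were apart, by 1.05 ± 0.18 in KO and 1.07 ± 0.18 in WT cells (limma adjusted p = 0.00151 and 0.0013). Nars, for asparagine, read 10.94, 10.57 and 10.49 in activated KO cells, against 10.04, 10.01 and 10.03 in native KO cells. Nars in activated WT cells read 10.92, 10.16 and 10.81, against 10.05, 10.22 and 10.08 in native WT cells, where activated array 2 fell among the native arrays. Nars rose by 0.64 ± 0.18 in KO cells (limma adjusted p = 0.0278), a call lost without activated KO array 1 or any native KO array, and differed by 0.51 ± 0.18 in WT cells (0.072). Sars, Wars and Eprs, for serine, tryptophan, and glutamate with proline, were not called. Their differences lay between 0.17 and 0.52 in KO cells and between 0.28 and 0.58 in WT cells. Without activated WT array 2, Nars, Wars and Eprs were called in WT cells, at 0.75, 0.54 and 0.85 (limma adjusted p = 0.00305, 0.0184 and 0.0016), which made 4 of 5. Without activated KO array 3, Sars was called in KO cells at 0.52 (0.013) and Nars in WT cells at 0.51 (0.0465). Eprs passed in KO cells without activated WT array 2 (0.0134). After quantile normalization Eprs was called in KO cells (limma adjusted p = 0.0222). Wars, Nars and Eprs were then called in WT cells (0.0203, 0.0106 and 0.0146).

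Of the 7 genes grouped as regulators of the stress response, 3 rose in KO cells (Atf5, Sesn2 and Chac1) and 1 in WT cells (Chac1). Chac1 is an enzyme, and none of the others was called in WT cells. The KO count was 1 without activated KO array 1 or any native KO array, and the WT count was 2 without activated KO array 1 or 3 and 3 without activated WT array 2. Atf4 read 9.45, 9.01 and 8.83 in activated KO cells, against 9.15, 9.51 and 9.01 in native KO cells. Atf4 in activated WT cells read 9.31, 8.70 and 9.22, against 9.06, 9.39 and 9.11 in native WT cells. The states overlapped, and the differences were -0.12 ± 0.20 (95% interval -0.57 to 0.32) in KO and -0.11 ± 0.20 (-0.55 to 0.34) in WT cells, with signs that turned to 0.05 in both after quantile normalization. An array measures the messenger RNA of Atf4 and not its protein.

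Atf3, an early stress-induced factor, had the widest spread of the 33 genes within the native groups. It read 7.999, 7.36 and 6.56 in activated KO cells, against 7.04, 9.46 and 8.33 in native KO cells. Atf3 in activated WT cells read 7.78, 6.70 and 7.50, against 6.61, 8.39 and 7.41 in native WT cells. Native arrays numbered 2 were highest and those numbered 1 lowest in both genotypes, and the differences of -0.97 ± 0.60 and -0.14 ± 0.60 did not pass (limma adjusted p = 0.339 in KO and 0.928 in WT cells). The native arrays numbered 2 were also the highest of their groups for Atf4, Ddit3, Slc3a2, Slc38a2 and Slc7a5 in both genotypes. Ddit3 (CHOP), which ATF4 induces under lasting stress, differed by -0.44 ± 0.36 in KO and -0.36 ± 0.36 in WT cells and was not called. Trib3, a pseudokinase that feeds back on ATF4, stood just outside the threshold in WT cells, at 0.90 ± 0.29 (limma adjusted p = 0.0501) beside 0.79 ± 0.29 in KO cells (0.086). The WT difference passed under 10 of the other settings, among them quantile normalization (0.0372). Without activated KO array 3, Trib3 was called in KO cells at 1.21 (0.00048).

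Chac1, an enzyme that degrades glutathione, was higher in activated cells of both genotypes. It read 8.47, 7.50 and 7.04 in activated KO cells, against 5.43, 5.62 and 5.61 in native KO cells. Chac1 in activated WT cells read 8.51, 6.78 and 8.09, against 5.68, 5.67 and 5.87 in native WT cells. Native cells were at background, and the measured differences passed (limma adjusted p = 0.00313 in KO and 0.00361 in WT cells). The rise was at least 1.54 on the log2 scale in WT cells, with an approximate bound of 1.38 in KO cells. Activated KO array 3 was itself below its own background level.

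Sesn2, a leucine sensor that restrains the growth kinase complex mTORC1, read 8.24, 6.99 and 7.68 in activated KO cells, against 6.07, 6.24 and 5.87 in native KO cells, all at background. Sesn2 in activated WT cells read 7.72, 6.10 and 8.12, against 6.06, 6.43 and 6.18 in native WT cells, and activated WT array 2 lay among the native arrays. The rise in KO cells was at least 1.34 on the log2 scale (limma adjusted p = 0.0244), while the difference of 1.09 ± 0.44 in WT cells did not pass (0.109). That WT difference was 1.70 and passed without activated WT array 2 (0.0021), and was 1.48 and passed with array weights (0.000307). Atf5, an ATF4-related factor, read 6.80, 6.64 and 6.74 in activated KO cells, against 6.40, 6.39 and 6.44 in native KO cells. Atf5 in activated WT cells read 6.70, 6.70 and 6.78, against 6.57, 6.64 and 6.63 in native WT cells. Its rise in KO cells was small, at 0.32 ± 0.09 (limma adjusted p = 0.0236), and in WT cells the difference was 0.11 ± 0.09 (0.477). The KO calls of Atf5 and Sesn2 were both lost without activated KO array 1 or any native KO array, and that of Sesn2 also with array weights, at 0.95. Atf5 lost its call under 4 further settings as well.

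Promoter letters and response can be set side by side for 27 measured genes with a window. Of these, 17 were called on activation in at least 1 genotype. The core was present in 8, of which 6 were called (Chac1, Asns, Got1, Slc7a11, Slc1a4 and Gars) and Atf3 and Trib3 were not. Got1 and Slc7a11 were called in WT cells only, and Slc7a11 was at background on every array. Psat1, Phgdh, Mthfd2 and Bcat1 rose without these letters in their windows, which says nothing of ATF4 binding elsewhere.

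Other genes of the same pathways, listed by role from general knowledge, were read alongside. Among 7 kinases and feedback genes of the stress response, 1 rose and 2 fell in KO cells, and 0 rose and 2 fell in WT cells. Ppp1r15a, the GADD34 subunit that leads a phosphatase back to eIF2, fell to 7.88, 7.44 and 6.72 in activated KO cells, against 10.31, 10.96 and 10.71 in native KO cells. Ppp1r15a in activated WT cells read 7.36, 6.995 and 7.08, against 10.29, 10.76 and 10.74 in native WT cells. The states were far apart, at -3.31 ± 0.27 in KO and -3.45 ± 0.27 in WT cells (limma adjusted p = 5.79e-06 and 3.59e-06). Activated KO array 3 was under its own background level for Ppp1r15a. The eIF2 kinase Eif2ak2 (PKR) differed by 0.88 ± 0.28 in KO and 0.81 ± 0.28 in WT cells, of which the KO value passed, while Eif2ak1 (HRI) fell in both, at -0.35 ± 0.11 and -0.51 ± 0.11. The KO calls of Eif2ak2 and Eif2ak1 were each lost with 9 of the 12 arrays left out in turn, and the KO count of this list ran between 0 and 2 higher and between 1 and 2 lower. Eif2ak2 passed in WT cells without activated KO array 1 or 3 or activated WT array 2.

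Of 14 genes listed as other ATF4 targets, 7 rose and 1 fell in KO cells, and 8 rose and 0 fell in WT cells. That list leaves out Ppp1r15a, counted above with the feedback genes, which fell in both genotypes. Ddit4 (REDD1), which restrains mTORC1, rose by 2.44 ± 0.49 in KO and 2.59 ± 0.49 in WT cells, and Eif4ebp1, a brake on translation initiation, by 1.74 ± 0.21 and 1.77 ± 0.21. Gpt2, the mitochondrial alanine aminotransferase, was at background in native cells and rose, with approximate bounds of 0.49 in KO and 0.82 in WT cells. Gpt2 on activated KO array 3 and activated WT array 2 was under the background of those arrays. The bound for Gpt2 ran between 0.24, without activated KO array 1, and 0.83, without activated KO array 3, and in WT cells between 0.52, without activated WT array 3, and 1.30, without activated WT array 2. Stc2, a secreted glycoprotein, was likewise at background in native cells. It rose by at least 1.46 in WT cells, with an approximate bound of 1.03 in KO cells. Activated KO array 3 was under its own background for Stc2, and the KO bound was 0.60 without activated KO array 2 and 1.62 without activated KO array 3. The KO calls of Gpt2 and Stc2 were each lost with 5 of the 12 arrays left out in turn. The number of targets called higher fell to 4 in KO cells without native KO array 2 or 3, and to 5 in WT cells without activated WT array 3 or native WT array 2 or 3.

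Of 12 further cytosolic tRNA synthetases, 5 rose and 0 fell in either genotype. Iars, Yars, Mars1 and Vars (for isoleucine, tyrosine, methionine and valine) led in KO cells, with differences between 0.71 and 1.29. Iars had 2 transcript clusters, of which the brighter was read. In WT cells 8 of these 12 were called higher without activated WT array 2. Of 16 mitochondrial tRNA synthetases, 0 rose and 5 fell in KO cells, and 0 rose and 6 fell in WT cells. After quantile normalization 1 rose and 3 fell in KO, and 1 rose and 4 fell in WT cells. Tars2, for threonine, fell by 0.89 in KO and 0.70 in WT cells, and Mars2, for methionine, by 0.62 and 0.66. Aars2, for alanine, gave -0.54 ± 0.12 and -0.45 ± 0.12, of which the WT call was lost without native WT array 2. It was above background on only 1 of 3 activated KO and 2 of 3 activated WT arrays. Ears2, for glutamate, was called lower but was at background in activated cells, so no size is given for it, and its call was lost without native KO array 1 in KO and without activated WT array 2 or native WT array 1 in WT cells. The median log2 difference in KO cells was 0.57 over the cytosolic and -0.33 over the mitochondrial list, and 0.57 and -0.42 in WT cells.

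Of 14 other folate, methionine and glycine genes, 2 rose and 1 fell in either genotype. Tyms, thymidylate synthase, which spends a folate one-carbon unit on DNA synthesis, rose by 2.56 ± 0.25 in KO and 2.42 ± 0.25 in WT cells. Gcsh, of the glycine cleavage system, was at background in native cells and rose, with approximate bounds of 0.81 in KO and 0.61 in WT cells. Gcsh on activated KO array 3 and activated WT array 2 was under the background of those arrays, and the WT bound was 1.10 without activated WT array 2 and 0.34 without activated WT array 3. Mtr, methionine synthase, fell by 0.65 and 0.59. With 1 of the 12 arrays left out in turn, the call of Gcsh was lost in 3 instances in KO and 9 in WT cells, and that of Mtr in 3 and 8, while Tyms kept its call in both genotypes. Of 9 other amino acid enzymes, 4 rose and 1 fell in KO cells, and 4 rose and 0 fell in WT cells. Pcx, pyruvate carboxylase, rose above a native level at background, by at least 1.76 in WT cells, with an approximate bound of 1.39 in KO cells. Activated KO array 3 was under its own background for Pcx, and the KO bound was 1.83 without it. The mitochondrial aminotransferases rose too, Got2 by 0.86 ± 0.09 and 0.84 ± 0.09 and Bcat2 by 0.88 ± 0.21 and 1.11 ± 0.21. Glul, glutamine synthetase, differed by -0.81 ± 0.25 in KO cells, where it passed, and -0.56 ± 0.25 in WT cells. Got2 and Glul each had 2 transcript clusters, of which the brighter was read. The KO call of Glul was lost without any 1 of the 6 native arrays, its KO difference was -0.46 without activated KO array 3, and in WT cells it passed without that array. Of 17 other transporters, 2 rose and 1 fell in KO cells and 3 rose and 1 fell in WT cells. Slc36a4 and the taurine transporter Slc6a6 rose by 0.90 ± 0.17 and 0.72 ± 0.17 in KO cells. The lysosomal Slc36a1 fell by 0.87 there, a call lost without native KO array 1.

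Within the activated state, whole arrays moved together across roles. Activated WT array 2 was the lowest of its group for 31 of the 33 genes, and activated KO array 1 the highest of its group for 29. The mean of all 33 genes was 9.49, 9.10 and 9.02 on activated KO arrays and 9.43, 8.74 and 9.50 on activated WT arrays. On native arrays it was 8.22, 8.42 and 8.33 in KO and 8.24, 8.38 and 8.32 in WT cells. The pattern reached beyond these genes: of 1533 other genes called higher on activation in both genotypes, 84.3% were lowest on activated WT array 2 within their group, against 38.9% of all genes. On activated KO array 3, 71.4% of those genes were lowest within their group, against 42.3% of all genes, whereas of the 33 genes 14 were lowest on activated KO array 3 and 19 on activated KO array 2. Activated KO array 3 and activated WT array 2 also had the narrowest ranges of values and a raised background, as given above, and the part of these in their low values was not tested.

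**Figure D4:**
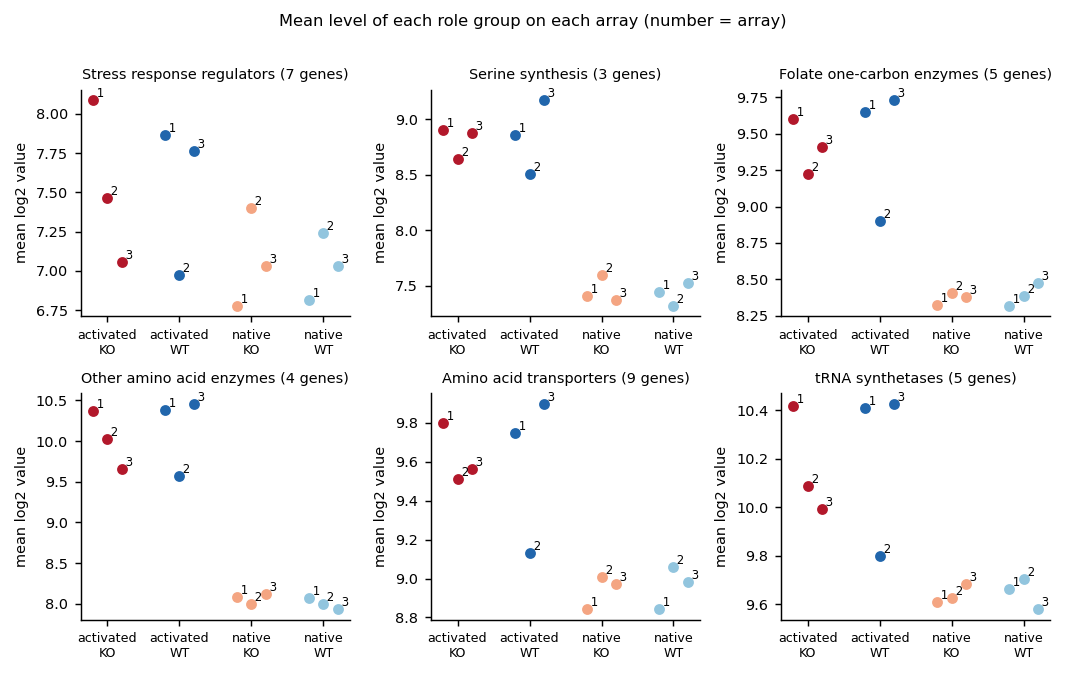
Mean log2 value of the genes of each role on each array (number = array), by group. Activated WT array 2 is the lowest of its group in all 6 panels, and the native means of the stress response regulators run between 6.78 and 7.40.

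The second comparison asked whether loss of Aire changed these genes. None of the 33 was called between activated KO and activated WT cells, none between native KO and native WT cells, and none in the interaction of genotype and activation (limma). Over all genes the share called was 0% in each of these 3 tests, with 87, 131 and 86 of 19938 genes at an unadjusted p under 0.05. Of the 33 genes, 0, 1 and 0 had an unadjusted p under 0.05. The median difference of the 33 was -0.02 in activated cells and -0.01 in native cells.

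The intervals state what this fit could have missed, with the spread of each gene pooled over all groups. The median standard deviation of the 33 genes was 0.24 in activated KO and 0.40 in activated WT cells. It was 0.13 in native KO and 0.12 in native WT cells, so native intervals carry the spread of activated arrays too. With only the groups compared fitted, 491 genes in native and 30 in activated cells had an unadjusted p under 0.05 (limma). The main fit gave 131 and 87. In activated cells the 95% interval of KO minus WT lay within 1 log2 unit of 0 for 29 of the 33 genes, all except Atf3, Chac1, Sesn2 and Asns. In native cells this held for 30, all except Atf3, Chac1 and Sesn2. For the interaction it held for 25. In activated cells these intervals reached between 0.193 and 1.32 to either side of the estimate, with a median of 0.450.

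Asns, with the lowest difference in activated cells, read 11.18, 11.02 and 9.82 in activated KO and 11.22, 10.39 and 11.28 in activated WT cells. KO minus WT was -0.29 ± 0.34 (95% interval -1.04 to 0.46), and without activated KO array 3 it was 0.13. Sesn2, with the highest difference, read 8.24, 6.99 and 7.68 in activated KO and 7.72, 6.10 and 8.12 in activated WT cells. Its difference of 0.32 ± 0.44 became -0.28 without activated WT array 2, so 1 array set the sign in either gene. For Atf4 the difference was 0.02 ± 0.20 in activated and 0.04 ± 0.20 in native cells.

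In native cells the KO arrays lay below the WT arrays without overlap for 4 of the 33 genes, against 4.92% of all genes. Those were Atf5, Chac1, Slc7a1 and Nars, and Chac1 was at background in both genotypes. Atf5 in native KO cells lay just above the background levels of 6.22, 6.31 and 6.35 on those arrays. Atf5 read 6.40, 6.39 and 6.44 in native KO and 6.57, 6.64 and 6.63 in native WT cells, a difference of -0.20 ± 0.09 with an unadjusted p of 0.0398 (limma adjusted p = 1). Atf3 had the largest native difference, 0.80 ± 0.60, and was higher in KO cells in each of the 3 same-numbered pairs. Its groups overlapped and it did not pass (limma adjusted p = 1). Neutrophil transcripts varied between native arrays, with a mean of 12 markers of 7.98, 5.88 and 7.44 in native KO and 6.52, 5.76 and 5.45 in native WT cells, and 2 of the 12 at background on all native KO arrays. All 12 were higher in native KO cells by their means, and 0 were called. The 6 natural killer (NK) cell markers were all higher in KO cells by their means in both states, with median differences of 0.32 in activated and 0.59 in native cells. Their mean was 7.88, 7.40 and 8.28 in activated KO and 7.67, 6.95 and 7.91 in activated WT cells, against 8.71, 7.91 and 8.25 in native KO and 8.03, 7.49 and 7.51 in native WT cells. The NK receptor genes Ncr1 and Klra8 were at background on all activated arrays. The 8 CD8 T cell markers were all lower in activated KO cells by their means, with a median difference of -0.35, and their mean was 11.26, 11.67 and 10.56 in activated KO and 11.42, 11.68 and 11.33 in activated WT cells. None of these markers was called between genotypes, and their part in the genotype comparisons was not tested.

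**Figure D5:**
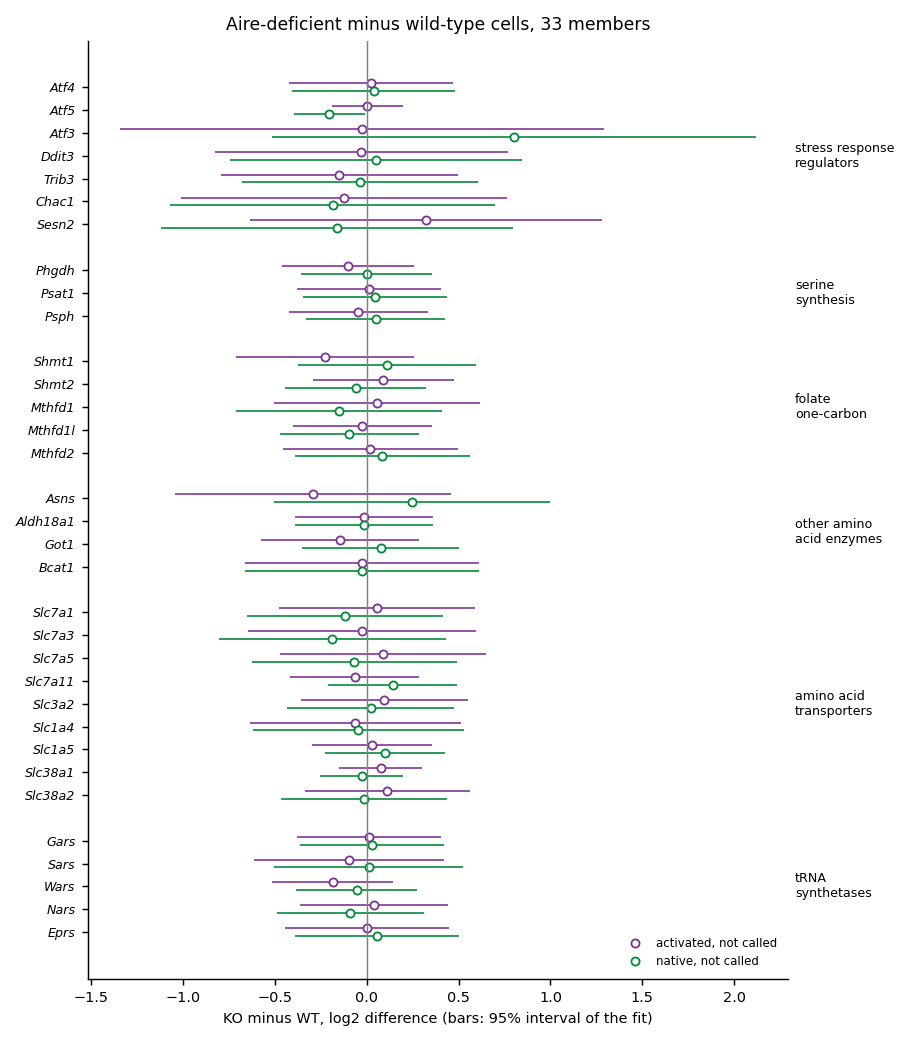
Log2 difference of KO minus WT for the 33 genes in activated (purple) and native (green) cells, with bars for the 95% interval of the fit. All points are open, since none was called, and every interval except that of Atf5 in native cells reaches across 0.

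Same-numbered activated arrays gave opposite pictures. For arrays numbered 1, 23 of the 33 genes were higher in KO, with a median difference of 0.05. Between arrays numbered 2, 29 were higher in KO, with a median of 0.37. For arrays numbered 3, 1 was higher in KO, with a median of -0.39. The 1533 other induced genes moved alike, 94.98% higher in KO between arrays numbered 2 and 12.4% between arrays numbered 3. With all arrays, 16 of the 33 genes had a mean higher in activated KO than in activated WT cells. That number was 1 without activated WT array 2, 24 without activated WT array 1 and 27 without activated WT array 3, and it was 5 without activated KO array 1 and 21 without activated KO array 2 or 3.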

How the data were processed

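RNA of 12 samples was measured on Affymetrix whole-transcript arrays. Total RNA was purified and turned into biotin-labelled sense DNA, per the labels' protocols. For the deposited log2 values, 1 per transcript cluster, the submitters' processing notes name Partek and RMA, with no version given in the sources used here. In general RMA compresses differences near background.

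Of 35556 transcript clusters, 21789 had 1 gene symbol in the platform annotation, 1621 several and 12146 none. Symbols were updated to the RefSeq gene table (GRCm38.p6), which matched 21698, and the brightest cluster per gene was kept, leaving 19938 genes (999 had several clusters). Group means over all 12 arrays were fitted with limma 3.58.1 in R 4.3.3 (lmFit, eBayes), with Benjamini-Hochberg adjustment over all genes and a threshold of 0.05. Errors are standard errors of that fit. Arrays have no read depth, and 3 arrays per group limit the precision. Where a gene was at background in a native group, the bound used the higher of its own value and the background level per native array. Activated arrays kept their measured values, so the bound is approximate where one of them was under its own background.

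The 35 genes and the lists beside them were chosen with earlier results of these data known, so they are no independent evidence. All 35 genes are named, and of each other list at most 4, those called with the largest log2 difference in KO activation. Values are compared within a gene, never between genes.

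Each sample description carries an experiment number that holds 1 KO and 1 WT array of the same state. Same-numbered native arrays deviated together (correlations of their deviations from the group means of 0.580, 0.396 and 0.157). The last is close to the 0.130 between native KO array 2 and native WT array 3. These values do not settle whether the numbers pair the samples, and the main fit used no pairing. Same-numbered activated arrays did not all deviate together (0.694, -0.0166 and -0.0130). Alternatives were the scaling, a filter on dim genes, the mean of a gene's clusters, trended robust moderation, array weights, a replicate block, only the groups compared, and each array left out. Clusters of several genes were left out.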

Additional observations from a re-analysis of the deposited data

Results flagged for a closer look

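Some transcript clusters outside the gene comparisons carried a signal, in a fit of all 35556 clusters (limma adjusted p). The cluster shared by Aars and Exosc6 read 8.70, 8.15 and 8.32 in activated KO cells, against 7.70, 7.71 and 7.63 in native KO cells. In WT cells it read 8.66, 7.73 and 8.67, against 7.50, 7.69 and 7.57, a difference of 0.76 ± 0.23 that passed (adjusted p = 0.0359), beside 0.71 ± 0.23 in KO cells, which did not (0.0506). It cannot be assigned to either gene.

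A second cluster of Slc38a1 rose by 1.05 ± 0.27 in WT cells (adjusted p = 0.0162) and differed by 0.74 ± 0.27 in KO cells (0.0745). The brighter cluster of Slc38a1 gave 0.52 in KO and 0.42 in WT cells. A cluster annotated to both Gm6756 and Phgdh rose by 1.22 ± 0.17 in KO cells (adjusted p = 0.000605) and 1.26 ± 0.17 in WT cells (0.000435), and signal of the 2 genes cannot be separated in it.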

How the results depend on the processing

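With 1 array left out, the number of the 33 genes called higher on activation ran between 15 and 21 in KO and between 13 and 26 in WT cells. Under the other settings it ran between 17 and 24 in KO and between 18 and 27 in WT cells. Called under every setting were 15 genes in KO (Chac1, Phgdh, Psat1, Shmt1, Shmt2, Mthfd1l, Mthfd2, Asns, Aldh18a1, Bcat1, Slc7a3, Slc7a5, Slc1a4, Slc38a1 and Gars) and 13 in WT cells (the same without Mthfd1l and Slc38a1). With the number of the titles as a replicate block, 19 genes were called in KO (Slc7a1 added, limma adjusted p = 0.0394) and 20 in WT cells (Trib3 and Wars added, 0.0483 and 0.0352). The replicate block, by title or by experiment number, gave 0 calls between genotypes, as did every other setting for these genes. The setting without both arrays of narrowest interquartile range (activated KO array 3 and activated WT array 2) was chosen after seeing the data and gave 24 and 27 genes. Array weights stopped before convergence.

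Signs were followed gene by gene for the 33 genes on activation. Between genotypes this was done only for Asns and Sesn2 in activated cells and for Atf5 and Atf3 in native cells. The interaction was followed for Atf3 and Asns. Among the values followed, signs turned only in those that had not passed the test. Other genes turned between activated genotypes too. With 1 array left out, between 1 and 27 of the 33 were higher in KO, against 16 with all arrays. With 1 array left out, Atf4 ran between -0.300 and 0.0201 in KO and between -0.223 and 0.0780 in WT cells, Ddit3 between -0.794 and 0.0171 in KO, Sars between -0.00869 and 0.516 in KO and Atf3 between -0.570 and 0.318 in WT cells. The sign turned without activated KO array 3 (Atf4, Ddit3) or 1 (Sars) or native KO array 2 (Atf4), and without activated WT array 2 (Atf4, Atf3) or native WT array 2 (Atf3). Between activated KO and WT cells, Sesn2 ran between -0.285 and 0.726, turning without activated WT array 2, and Asns between -0.578 and 0.134, turning without activated KO array 3. After quantile normalization Atf4 was 0.0539 in KO and 0.0513 in WT cells. With array weights Atf3 was 0.00546 in WT cells and Sesn2 -0.659 between activated genotypes. Without both narrow arrays, Atf4 and Ddit3 were 0.00933 and 0.0171 in KO, Atf4 and Atf3 were 0.0780 and 0.172 in WT cells, and Sesn2 was -0.304 between activated genotypes. The cause was not tested. Signal close to background limits Slc7a11, Slc7a3, Slc1a4, Bcat1, Chac1 and Sesn2. It also limits Asns in native WT cells, and Atf5, Atf3, Ddit3 and Trib3, which were under background on activated KO array 3. Atf5 and Atf3 were under background on activated WT array 2 as well.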
